A study of Mus musculus with 17 samples.

Results

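The 32 genes described here encode proteins of the nucleolus, the nuclear compartment in which ribosomes are assembled. They were taken from a list of names and comprised 8 genes for RNA polymerase I transcription (Polr1a, Polr1b, Polr1c, Polr1d, Polr1e, Rrn3, Ubtf and Tcof1), 3 for box C/D small nucleolar RNA particles (Fbl, Nop56 and Nop58), 3 for box H/ACA particles (Gar1, Nhp2 and Nop10), 6 small subunit factors (Imp3, Imp4, Mphosph10, Rrp9, Utp18 and Emg1), 8 large subunit factors (Bop1, Pes1, Nop2, Nop16, Nip7, Rrs1, Rrp1 and Nifk) and 4 general nucleolar proteins (Npm1, Ncl, Ddx21 and Nolc1). All 32 passed the filter on dim signals (a signal above 41.1 on at least 3 arrays), among 6044 genes tested, and 22 of them were above it on all 17 arrays. The study profiled mouse oocytes and preimplantation embryos on 17 Affymetrix MG-U74Av2 arrays, of which oocytes and the 8-cell stage had 4 each, and the 1-cell stage, the 2-cell stage and the blastocyst 3 each. Each array held amplified total RNA after 2 rounds of in vitro transcription, per the labels. Strain, age, treatment of the females, oocyte maturity and the number of embryos per sample are not stated in the labels. Whether arrays of a stage came from separate collections was not stated either, so a p-value here refers to the spread among the arrays of a stage, part or all of which may be technical.

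A nucleolus forms around active ribosomal RNA genes. RNA polymerase I, brought to the promoter by the initiation factor Rrn3 and by Ubtf bound along the repeats, makes a long precursor. Box C/D particles then methylate it, box H/ACA particles convert chosen uridines to pseudouridine, and assembly factors cut and fold it into the small and large subunits. A fully grown mouse oocyte transcribes little, the fertilised egg holds compact nucleolus precursor bodies in place of working nucleoli, and ribosomal RNA synthesis restarts during cleavage after the embryo's own genome has become active.

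The stage labels were checked against markers. The summed signal of 8 measured oocyte genes was 28800 to 29700 in oocytes and 252 to 371 in blastocysts. At the 1-cell stage it was 22800 to 28700, close below the oocyte range, with 2 of the 8 genes called higher and 5 lower. Krt8, a keratin of the trophectoderm, had a mean signal of 12.7 in oocytes and 3660 in blastocysts, while the trophectoderm factor Cdx2 had stage means of 8.55 or less, below the filter throughout. Of 9 tested blastocyst markers, 6 were called higher and 2 lower in blastocysts than at the 8-cell stage. The mean of Gata6 went from 431 to 223 in that step and that of Tead4 from 540 to 314. Tcstv1, a gene of the 2-cell stage, had a mean signal of 2060 there and 56.0 at the 8-cell stage. All 5 tested markers of the 2-cell stage were called higher there than at the 1-cell stage. At the 8-cell stage 3 of them were called lower and 2 higher, Eif1a (443 to 1540) and Pramel6 (1890 to 4490). The 6 on the array summed to 4700 to 7080 at the 2-cell stage and 5000 to 6980 at the 8-cell stage. That sum does not separate these stages. Across probe sets, the correlation between arrays was 0.935 to 0.979 within a stage and at most 0.891 between stages. One library stood apart in another tissue's marker. Ovgp1, a secreted oviduct glycoprotein, read 6212.4 on 8-cell array 2 and 43.1 to 114.1 on the other 8-cell arrays. It read 688.1 to 1271.8 on the 2-cell arrays and at most 56.4 at the remaining stages. The summed signal of 13 oviduct and uterus genes was 1690 to 2280 at the 2-cell stage, 543 to 7840 at the 8-cell stage and 575 to 922 elsewhere. The 10 cumulus and granulosa genes on the array summed to 142 to 415, the 8 sperm genes to 173 to 480 on all arrays. The 8 blood genes summed to 114 to 196 up to the 1-cell stage, 297 to 393 at the 2-cell stage and 176 to 350 after it. The part of such cells in the results was not tested. Without 8-cell array 2, 17 of the 32 genes were called higher and 4 lower at the 8-cell stage against the 2-cell stage, and 21 were called lower in blastocysts against the 8-cell stage.

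Values are the authors' signals on a linear scale, scaled so that every array had about the same mean. Changes are differences of mean log2(signal + 11) ± SE from 1 limma fit over all arrays, and a gene was called at an adjusted p below 0.05 over all probe sets. This scale understates the change of dim genes, and below the filter of 41.1 a fold change depends on the offset. All levels are shares of each sample's amplified RNA, so less RNA per cell and fewer cells of a type cannot be told apart. Control probe sets for bacterial transcripts shifted on the log2 scale by 1.11 from oocyte to 1-cell embryo and -0.22 to the 2-cell stage. The next shifts were 0.64 to the 8-cell stage and -1.18 to the blastocyst. Their mean also varied within a stage, from 10.21 to 11.38 over the 1-cell arrays and from 9.33 to 9.79 over the oocyte arrays. Whether these controls follow the amount of RNA per embryo was not tested. Scaling the arrays on these controls moved the median change of all genes to -0.91, 0.22, -0.60 and 0.94 in the 4 consecutive steps, from 0.03, 0.04, -0.07 and -0.07. The split of all genes moved with it, from 1087 higher and 1260 lower to 19 and 3573 at the 1-cell stage, from 1560 and 1379 to 1407 and 714 at the 2-cell stage, from 1577 and 1790 to 612 and 2509 at the 8-cell stage, and from 1389 and 1249 to 3591 and 137 in blastocysts. Centring on the array median gave 1197 higher and 1918 lower at the 2-cell stage. Results that turn under the bacterial controls are named with that scaling.

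**Figure D1:**
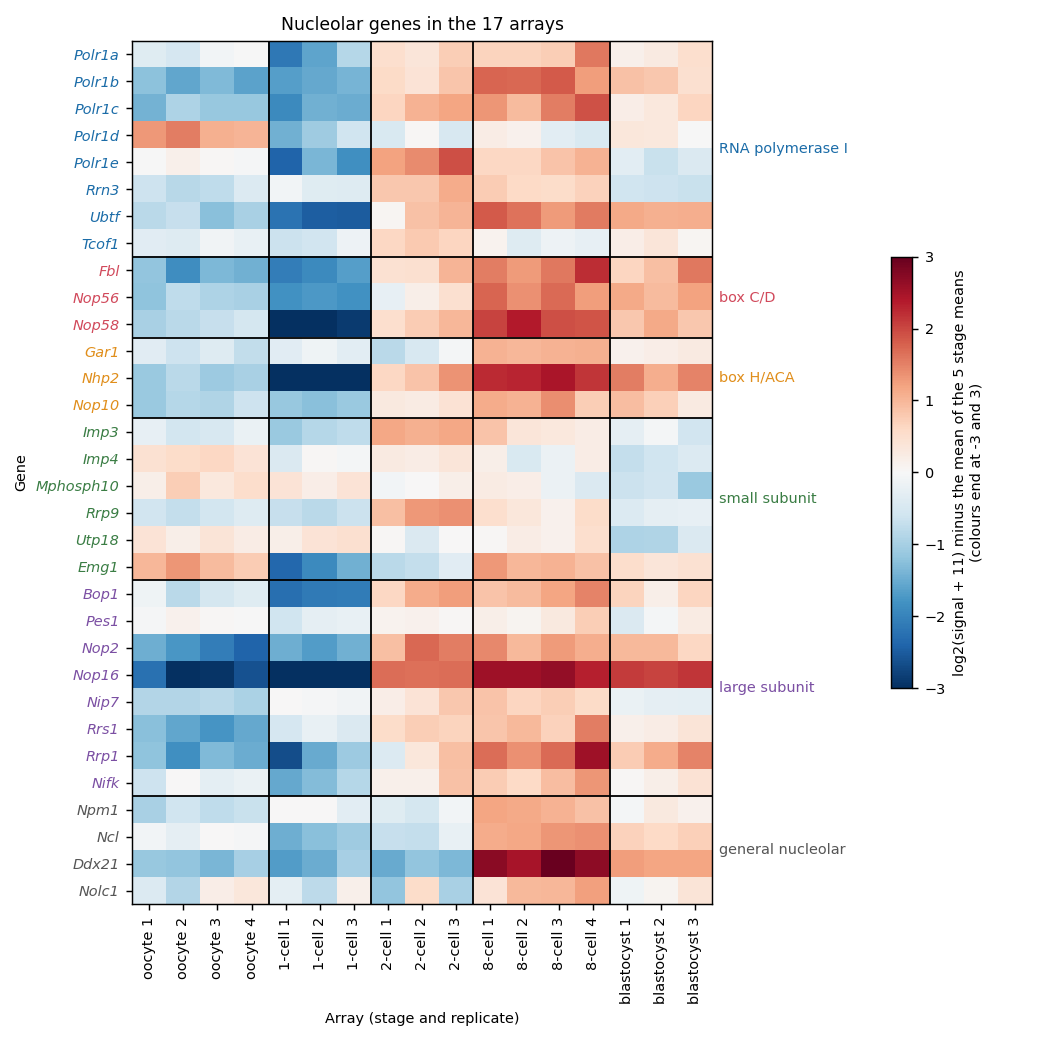
Each row is 1 of the 32 nucleolar genes, grouped by role, and each column is 1 of the 17 arrays in stage order. Colour gives log2(signal + 11) minus the gene's mean over the 5 stage means, with colours ending at -3 and 3. The 1-cell columns hold the deepest blue for Nhp2, Nop58, Nop16, Ubtf and Emg1, the 8-cell columns hold the deepest red under the authors' scaling, and Polr1d and Emg1 are red in the oocyte columns, with paler red there for Imp4, Mphosph10 and Utp18.

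Under the authors' scaling, most of the 32 genes had a low point at the 1-cell stage and a high point at the 8-cell stage. The high point at the 8-cell stage did not hold with the bacterial controls, since the median change of the 32 genes was then -0.14 from the 2-cell to the 8-cell stage and 0.45 from there to the blastocyst. The median of all genes was then -0.60 in the first of these steps, and 24 of the 32 genes lay above it. Under the authors' scaling the mean was lowest at the 1-cell stage for 22 genes (24.1% of all tested genes had their lowest mean there) and highest at the 8-cell stage for 22 genes (19.5% of all tested genes). The exceptions were 6 genes highest at the 2-cell stage, 3 highest in oocytes and 1 highest at the 1-cell stage. All 32 differed between stages by limma's moderated F test, as did 85.9% of all tested genes, so that the test alone says little about these genes.

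From oocyte to 1-cell embryo 14 genes fell, 4 rose and 14 were not called. Of all tested genes 20.8% were called lower and 18.0% higher. The median change was -0.41 for the 32 genes and 0.03 for all tested genes. From the 1-cell to the 2-cell stage 24 genes rose, 1 fell and 7 were not called, against 25.8% of all genes called higher and 22.8% lower, with medians of 1.56 and 0.04. From the 2-cell to the 8-cell stage 16 rose, 4 fell and 12 were not called, against 26.1% higher and 29.6% lower, with medians of 0.49 and -0.07. From the 8-cell stage to the blastocyst limma called 22 genes lower and 0 higher, or 27 and 1 at an unadjusted p below 0.05. In that last step 20.7% of all genes were called lower and 23.0% higher, with medians of -0.69 for the 32 genes and -0.07 for all genes. With arrays scaled on the bacterial controls, the 4 steps held 0 higher and 27 lower, 23 higher and 0 lower, 8 higher and 7 lower, and 6 higher and 0 lower of the 32, so the direction of the last step depends on the scaling. All 6044 tested genes then held 19 higher and 3573 lower, 1407 and 714, 612 and 2509, and 3591 and 137.

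**Figure D2:**
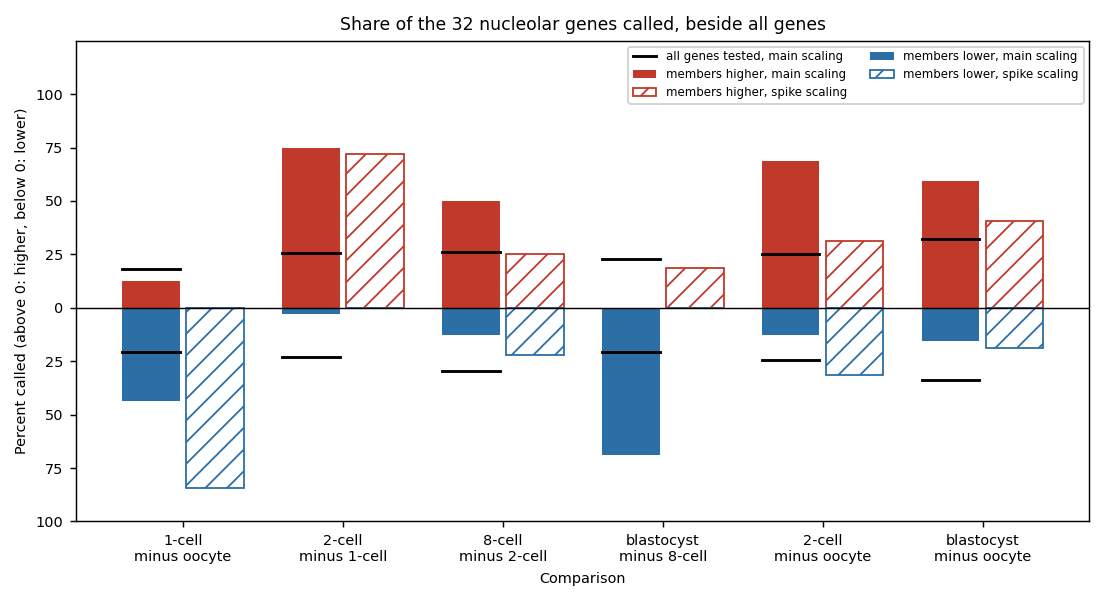
Bars give the percent of the 32 nucleolar genes called higher (above 0) or lower (below 0) in each of 6 comparisons. Filled bars use the authors' scaling, hatched bars the scaling on bacterial controls, and black lines give the percent of all 6044 tested genes under the authors' scaling. The bar for genes higher at the 2-cell than at the 1-cell stage has nearly the same height in both scalings (24 and 23 genes), while the bar for the blastocyst against the 8-cell stage turns from 22 lower to 6 higher. Of all 6044 genes, 3591 were called higher and 137 lower in that last step with the bacterial controls.

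Of the 24 rises at the 2-cell stage, 21 held under every alternative that gave the gene a value and with each array left out, all 4 scalings included. The 3 that did not were Polr1d, Nip7 and Ncl. The bacterial controls shifted least at this step (-0.22), so scaling on them could move its calls little. Of the 14 falls at the 1-cell stage, 13 held in all 4 scalings and 11 in all settings. Measured against the median of all genes in the same scaling, the median of the 32 genes lay 1.52 to 1.67 above it in the 4 scalings. At the 8-cell stage against the 2-cell stage it lay 0.44 to 0.57 above. In the last step 30 of the 32 genes lay below the median of all genes in each of the 4 scalings, by a median of -0.49 to -0.63, whichever sign the change itself had. A scaling shifts the 32 genes and all genes of an array nearly alike. The agreement of these differences across scalings was therefore largely given in advance and is no separate support.

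Windows of 250 bases before to 50 after the transcription start were in the RefSeq table (assembly GRCm38.p6) for 27 of the 32 genes, with no entry for Bop1, Fbl, Npm1, Rrs1 and Tcof1. Since most of these genes moved together, 3 letter patterns were searched on both strands. CACGTG, the core of the E-box that Myc and Usf proteins bind, was in 5 of 27 windows (18.5%), in 10.9% of 4868 windows of tested genes and in 7.24% of all 27025 windows. CCGGAAG, the core of many Ets family sites, was in 11 of 27 (40.7%), against 18.9% of tested genes and 9.12% of all. TATAAA was in 1 of 27 (3.70%), against 8.18% and 14.2%. CACGTG reads the same on both strands, and the patterns do not contain each other. Among the 20 genes with a window that rose at the 2-cell stage, CACGTG was in 2 and CCGGAAG in 7, and among the other 7 genes they were in 3 and 4. A match describes letters only. The 250 bases upstream of 4 genes are shown because these genes took unlike courses: Nop16 and Nhp2 had the largest rises at the 2-cell stage, Rrn3 peaked at the 2-cell stage with no called fall before it under the authors' scaling, and Utp18 was the gene called lower at the 2-cell stage. Each runs 5′ to 3′ on the gene's strand, ending at the base before the start, with CACGTG and CCGGAAG (either strand) in capitals. Nhp2 lies at chr11:51619523-51619772 on the + strand, Nop16 at chr13:54590075-54590324 on the - strand, Rrn3 at chr16:13780449-13780698 on the + strand and Utp18 at chr11:93885767-93886016 on the - strand.
Nhp2: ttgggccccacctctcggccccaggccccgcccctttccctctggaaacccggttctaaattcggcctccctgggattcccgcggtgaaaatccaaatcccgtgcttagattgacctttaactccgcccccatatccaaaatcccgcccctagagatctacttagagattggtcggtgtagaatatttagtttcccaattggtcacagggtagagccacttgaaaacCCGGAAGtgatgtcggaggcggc
Nop16: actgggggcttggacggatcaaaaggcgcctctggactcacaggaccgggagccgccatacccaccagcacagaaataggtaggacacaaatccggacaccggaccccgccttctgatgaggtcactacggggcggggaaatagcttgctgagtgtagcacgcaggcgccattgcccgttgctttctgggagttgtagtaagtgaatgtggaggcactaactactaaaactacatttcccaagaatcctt
Rrn3: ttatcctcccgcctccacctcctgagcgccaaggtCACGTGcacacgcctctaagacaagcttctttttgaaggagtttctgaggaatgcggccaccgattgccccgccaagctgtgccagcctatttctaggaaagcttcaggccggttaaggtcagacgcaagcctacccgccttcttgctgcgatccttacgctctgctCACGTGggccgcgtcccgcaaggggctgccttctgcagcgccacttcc
Utp18: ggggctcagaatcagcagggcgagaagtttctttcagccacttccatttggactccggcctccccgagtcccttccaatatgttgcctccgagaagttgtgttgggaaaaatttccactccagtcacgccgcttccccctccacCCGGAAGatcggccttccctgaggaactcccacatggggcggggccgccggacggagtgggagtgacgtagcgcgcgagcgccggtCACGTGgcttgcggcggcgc
Nhp2 held CCGGAAG with its first base at -23 from the start. Nop16 held none of the patterns. Rrn3 held CACGTG at -215 and -48, and CCGGAAG at -5, which runs over the start and is left in lower case, and at 19. Utp18 held CACGTG at -20 and CCGGAAG at -106 and 7.

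Of the 8 RNA polymerase I genes, 4 fell and 1 rose at the 1-cell stage, and all 8 rose at the 2-cell stage. Scaled on the bacterial controls, the 1-cell stage had 0 higher and 8 lower and the 2-cell stage 8 higher, and under quantile normalization and median centring 7 of 8 were called higher at the 2-cell stage. Ubtf, which opens and marks active ribosomal RNA genes, had signals of 76.7, 83.2, 53 and 66.8 in oocytes, 21.8, 16.5 and 16 in 1-cell embryos and 148.7, 268.5 and 295.8 in 2-cell embryos. It went on to 537.2, 457.3, 359.2 and 441.1 at the 8-cell stage and 324.6, 306 and 315.6 in blastocysts. No 1-cell array reached the filter, every 2-cell array lay above every oocyte array, and the 8-cell arrays lay above those of the 2-cell stage. The changes were -1.47 ± 0.21 to the 1-cell stage (adjusted p = 1.18e-05), 3.05 ± 0.23 to the 2-cell stage (adjusted p = 3.51e-10) and 0.93 ± 0.21 to the 8-cell stage. With the bacterial controls, the last of these was not called.

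Polr1e, the subunit that pairs with Polr1g on the enzyme's surface, peaked earlier. Its signals were 92.2, 104.7, 95.2 and 89.7 in oocytes, 8.4, 28.8 and 18 at the 1-cell stage, 226.8, 266.8 and 384.4 at the 2-cell stage, 148.1, 148.9, 174.8 and 201.9 at the 8-cell stage and 71.9, 54.1 and 65.6 in blastocysts. The 5 groups of arrays did not overlap between any consecutive stages. It rose by 3.40 ± 0.25 at the 2-cell stage and fell by 0.74 ± 0.23 at the 8-cell stage, a call lost without 2-cell array 3 (-0.53, adjusted p = 0.082) and under median centring. Rrn3, which couples the polymerase to its promoter, rose in the 2-cell embryo to 664.4, 664.6 and 815.9 from 352.2, 286 and 283.5 (change 1.19 ± 0.16, adjusted p = 1.87e-06). It read 635.9, 571.2, 546.4 and 603.9 at the 8-cell stage and lay at 243.4, 240.1 and 229.1 in blastocysts, inside the range of the oocyte arrays at 238.7, 203.3, 214.7 and 278.3. Its small rise at the 1-cell stage (0.38 ± 0.15) was lost without any of oocyte arrays 1, 2 and 3 or 1-cell arrays 1, 2 and 3 (0.28 to 0.43), and turned to -0.71 when scaled on the bacterial controls.

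The subunits of the enzyme itself did not share 1 course. Polr1b, the second largest subunit, read 123, 95.5, 114.4 and 92.3 in oocytes, 89.9, 97.2 and 109.2 at the 1-cell stage, 456, 411.9 and 547.7 at the 2-cell stage and 1049.8, 1039.5, 1114.9 and 736.7 at the 8-cell stage, with a change of -0.09 ± 0.17 at the 1-cell stage that was not called (-1.12 and called with the bacterial controls) and a rise of 2.13 ± 0.19 at the 2-cell stage. Polr1c, which is shared with RNA polymerase III, rose by 2.57 ± 0.22 at that stage and Polr1a, the largest subunit, by 2.05 ± 0.29. Polr1d, the partner of Polr1c in both enzymes, was an exception to the common course. Its signals of 383, 453.7, 321.9 and 312.5 in oocytes were followed by 47.9, 64.8 and 94.5 at the 1-cell stage, 105.5, 153 and 103.8 at the 2-cell stage, 174.7, 163.7, 117.7 and 105.2 at the 8-cell stage and 192.2, 187.1 and 148 in blastocysts. All oocyte arrays lay above all arrays of every other stage, and blastocysts remained 1.01 ± 0.23 lower on the log2 scale than oocytes (adjusted p = 0.000469). Its rise at the 2-cell stage (0.74 ± 0.24) was lost without 1-cell array 1 (0.54) or 2-cell array 2 (0.57) and under quantile normalization and median centring. Tcof1, which carries Ubtf and the polymerase to the ribosomal RNA genes, was highest at the 2-cell stage, at 263 ± 18.2 (SD, n = 3) against 114 ± 24.0 (n = 3) before and 141 ± 22.3 (n = 4) after. Both the rise (1.14 ± 0.19) and the fall (-0.85 ± 0.17) were called.

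All 3 box C/D genes rose at the 2-cell stage and again at the 8-cell stage. Nop58, which with Nop56 forms the scaffold that the guide RNA binds, had signals of 168.6, 191.3, 206.9 and 235 in oocytes and 31.2, 33.6 and 37.3 at the 1-cell stage. It then read 485.2, 582.7 and 696.1 at the 2-cell stage, 1419.1, 1819.8, 1343.3 and 1293.9 at the 8-cell stage and 601.7, 762.1 and 603 in blastocysts. The 1-cell arrays all lay below the filter and below every other array, and the 8-cell arrays lay above all others. The fall was -2.22 ± 0.17 (adjusted p = 1.22e-09), the first rise 3.72 ± 0.18 (adjusted p = 3.64e-13) and the next 1.31 ± 0.17. Its probe set is of a kind whose probes can also match related transcripts, as are those used for Polr1b and Nop16. The alternative that left out probe sets of such marked kinds gave these genes no value. Nop56 moved the same way over a smaller range, from 294 ± 37.3 in oocytes to 161 ± 6.29 at the 1-cell stage, 655 ± 167 at the 2-cell stage and 1710 ± 283 at the 8-cell stage, with changes of -0.82, 1.92 and 1.38. Fbl, fibrillarin, the enzyme that methylates the ribosomal RNA, read 193.7, 117, 171 and 159 in oocytes, 99.3, 112.3 and 137 at the 1-cell stage and 623.1, 641.4 and 936.7 at the 2-cell stage, and rose by 2.54 ± 0.25. At the 8-cell stage it read 1345.7, 1109.9, 1377.6 and 2143.7, a further rise of 1.00 ± 0.24. The rises of Fbl and Nop58 at the 8-cell stage were not called when scaled on the bacterial controls, and that of Nop56 was. The 8-cell and blastocyst arrays of Fbl overlapped, and its call of -0.61 ± 0.24 was lost without 8-cell array 1, 3 or 4 or blastocyst array 1 or 2 (-0.41 to -0.65).

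Among the box H/ACA genes, Nhp2 changed over the widest range. Its oocyte arrays read 480.7, 598.3, 491.4 and 531.5 and its 1-cell arrays 51.8, 85.4 and 103. The 2-cell arrays read 1638.5, 1908.2 and 2678.4, the 8-cell arrays 5049.7, 5172.4, 5781.8 and 4670.1 and the blastocyst arrays 3059.3, 2244.8 and 2980. No arrays of consecutive stages overlapped. Nhp2 fell by 2.60 ± 0.19 on the log2 scale at the 1-cell stage (6.05-fold, adjusted p = 9.59e-10), rose by 4.53 ± 0.21 at the 2-cell stage (23.1-fold, adjusted p = 1.41e-13) and by 1.34 ± 0.19 at the 8-cell stage, the last not called with the bacterial controls (0.69). Gar1, a partner in the same particle, did neither of the first steps. It read 1894.5, 1560.5, 1851.7 and 1444.7 in oocytes, 1902.6, 2215.6 and 1922.7 at the 1-cell stage and 1384.9, 1714.4 and 2314.1 at the 2-cell stage, with changes of 0.26 ± 0.16 and -0.19 ± 0.17 that were not called, and under the bacterial controls the first was called at -0.87. All 4 of its 8-cell arrays lay between 4845.9 and 5047, above every other array (1.49 ± 0.16, adjusted p = 5.29e-08). Nop10, the smallest protein of the particle, had means of 269 ± 39.2 in oocytes, 215 ± 12.4 at the 1-cell stage, 630 ± 43.9 at the 2-cell stage and 1070 ± 196 at the 8-cell stage, rising by 1.50 ± 0.19 and then 0.74 ± 0.18, the latter not called with the bacterial controls (0.10). Its fall to the blastocyst (-0.44 ± 0.18) was lost without 8-cell array 1, 2 or 3 or blastocyst array 2 or 3 (-0.25 to -0.48).

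**Figure D3:**
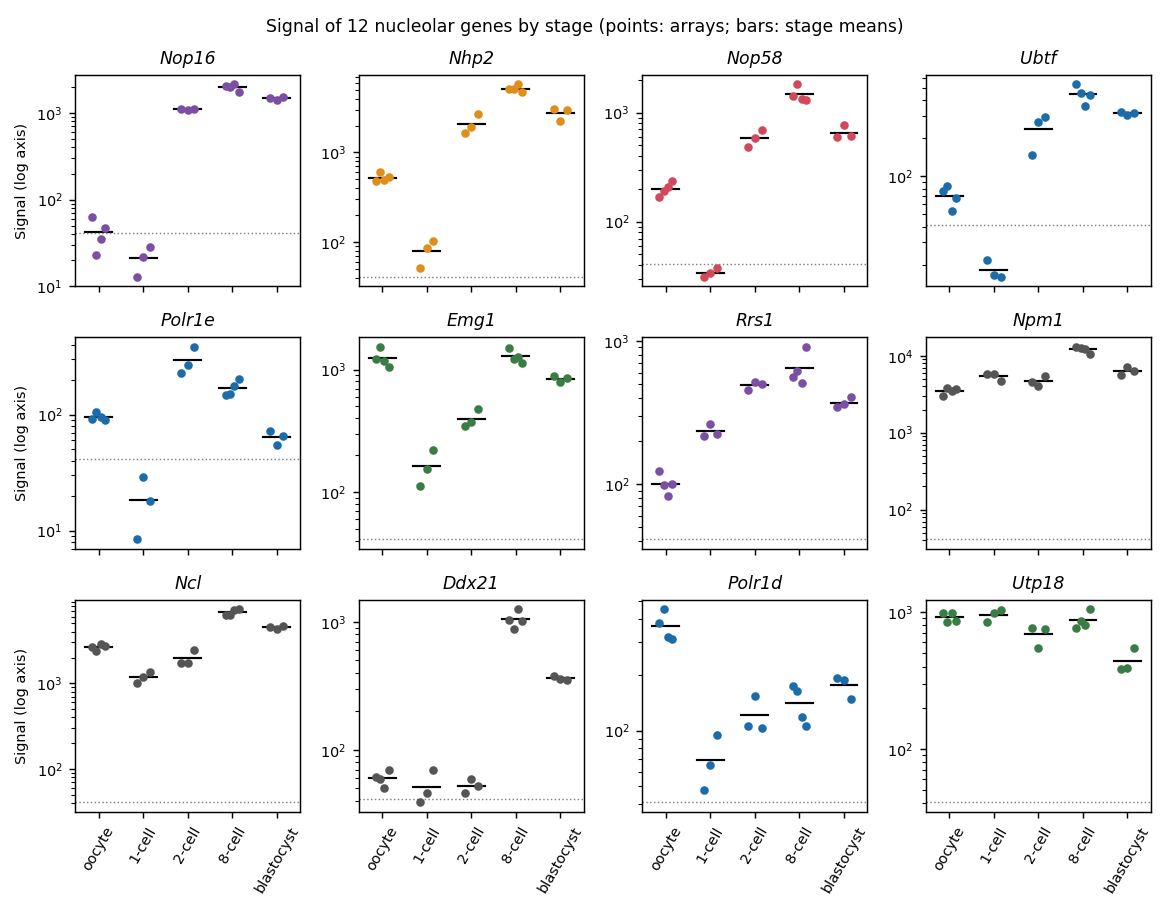
Signals of 12 of the 32 genes on log axes that differ between panels, with 1 point per array, bars for stage means (n = 4, 3, 3, 4 and 3) and a dotted line at the filter of 41.1. Nhp2, Nop58 and Ubtf drop at the 1-cell stage and lie high from the 2-cell stage on. Nop16 is dim in oocytes and 1-cell embryos and lies high from the 2-cell stage on. Ddx21 lies at 70 or below until the 8-cell stage, and Polr1d and Utp18 begin high in the oocyte.

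The small subunit factors were the most divided group. Imp3 and Rrp9, which bind the U3 small nucleolar RNA particle, had their peak at the 2-cell stage. Imp3 read 399.1, 319.8, 339.6 and 412.9 in oocytes, 215.1, 258.3 and 277.6 at the 1-cell stage, 1082.8, 1005.1 and 1076 at the 2-cell stage, 871.9, 615.1, 596.9 and 561.4 at the 8-cell stage and 395.8, 459.2 and 316.3 in blastocysts. Rrp9 read 214.1, 190.6, 216.3 and 245.3 in oocytes, 195.7, 178.9 and 200.7 at the 1-cell stage, 613.9, 812 and 858.1 at the 2-cell stage, 464.3, 409.6, 355.9 and 475.2 at the 8-cell stage and 240.8, 265.9 and 269.5 in blastocysts. For both, the 2-cell arrays lay above all others. They rose by 2.03 ± 0.18 and 1.92 ± 0.17 at that stage and fell by 0.69 ± 0.17 and 0.82 ± 0.16 at the 8-cell stage, calls that held under every alternative. The earlier fall of Imp3 at the 1-cell stage (-0.54 ± 0.17) was lost without oocyte array 4 (-0.48) or 1-cell array 1 (-0.43) and under quantile normalization.

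Utp18, Mphosph10 and Imp4, which also act in the small subunit processome, were not called higher in any of the 6 comparisons with the settings used throughout. Imp4 was called higher at the 2-cell stage against the 1-cell stage under 5 alternatives, among them quantile normalization (0.45), and Utp18 at the 8-cell stage against the 2-cell stage with the mean over its probe sets (0.72). Utp18 read 990.2, 840.9, 977.4 and 862.2 in oocytes, 841, 985.7 and 1030.4 at the 1-cell stage, 763.1, 545.8 and 749.7 at the 2-cell stage, 762.9, 860.8, 808.1 and 1047.8 at the 8-cell stage and 382.6, 390.6 and 548.6 in blastocysts. Its blastocyst arrays lay below all oocyte arrays, with a change of -1.06 ± 0.17 (adjusted p = 9.06e-06) in blastocysts against oocytes. It was the gene called lower at the 2-cell stage (-0.48 ± 0.18), a call lost without 1-cell array 2 (-0.45), 1-cell array 3 (-0.42) or 2-cell array 2 (-0.32). Mphosph10 went from 362 ± 63.6 (SD, n = 4) in oocytes to 150 ± 30.8 (n = 3) in blastocysts, a change of -1.22 ± 0.19 (adjusted p = 9.18e-06), and was not called in any of the first 3 steps under the authors' scaling. Imp4 went from 687 ± 49.1 (n = 4) to 318 ± 37.6 (n = 3), a change of -1.09 ± 0.17 (adjusted p = 8.48e-06). These 3 calls against the oocyte held under every alternative, but a second probe set of Utp18 gave 0.18 in that comparison. The fall of Imp4 from the 8-cell stage to the blastocyst (-0.52 ± 0.17) was lost without 8-cell array 1 or 4 or blastocyst array 1 (-0.43 to -0.45).

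Emg1, a methyltransferase that modifies the small subunit's RNA, showed the largest fall of the 32 genes from oocyte to 1-cell embryo and rose again at both of the next stages. Its arrays read 1226.2, 1537.7, 1183.9 and 1040.9 in oocytes, 111.2, 155.7 and 219.3 at the 1-cell stage, 344.7, 370 and 477.5 at the 2-cell stage, 1512.5, 1222.7, 1278.3 and 1140.7 at the 8-cell stage and 885.2, 793 and 849 in blastocysts. The 8-cell arrays lay inside the range of the oocyte arrays, and the 1-cell and 2-cell arrays all lay below both. The fall was 2.90 ± 0.19 on the log2 scale (7.44-fold, adjusted p = 1.31e-10), and the rises were 1.27 ± 0.20 and 1.68 ± 0.19. The rises were 1.46 and 1.03 with the bacterial controls, and the 2-cell stage then differed from oocytes by -2.52, so that the match of oocyte and 8-cell ranges belongs to the authors' scaling. Its fall to the blastocyst (-0.60 ± 0.19) was lost without blastocyst array 2 (-0.56, adjusted p = 0.0512).

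Of the 8 large subunit factors, 7 rose at the 2-cell stage. Nop16, a factor of the early large subunit particle and a known Myc target in other cells, had the largest change of all. It read 63.3, 23.1, 34.7 and 46.4 in oocytes and 12.8, 21.4 and 28.6 at the 1-cell stage, where every array lay below the filter. The 2-cell arrays read 1115.6, 1097.4 and 1117.6, the 8-cell arrays 2042.2, 2024, 2156.8 and 1754.4 and the blastocyst arrays 1497.2, 1412.9 and 1539.5. Every array from the 2-cell stage on was far brighter than the brightest earlier one, an oocyte array at 63.3. The change at the 2-cell stage was 5.16 ± 0.22 (adjusted p = 6.08e-14), the largest of the 32, and a second probe set of the gene gave 4.52. The probe set used is of the kind described for Nop58, and the second is of another marked kind. Its small fall at the 1-cell stage (-0.70 ± 0.21), between groups that overlapped, was lost without 1-cell array 1 (-0.50). It was also lost with an offset of 64 (-0.31), with the mean over its probe sets (-0.33) and in a fit of only the stages compared. The second probe set gave 0.03 at this step.

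Nop2, which methylates a base of the large subunit's RNA, read 49.1, 38.4, 28.5 and 20.4 in oocytes, 49.2, 41 and 50.3 at the 1-cell stage, 299.5, 540.9 and 469.8 at the 2-cell stage, 437.7, 313.8, 393.8 and 342.7 at the 8-cell stage and 315.9, 317.2 and 244.3 in blastocysts. It rose at the 2-cell stage by 2.92 ± 0.24 (adjusted p = 1.71e-09), and the 2-cell and 8-cell groups overlapped. It was also called lower, with the bacterial controls, at the 8-cell stage (-0.82) and higher in blastocysts (0.81). Bop1 rose by 3.16 ± 0.25 at the 2-cell stage from 1-cell signals of 3.4, 5 and 5.2, and Rrp1 by 2.03 ± 0.37, with a further rise of 1.54 ± 0.35 at the 8-cell stage. Bop1 works in a complex with Pes1, and Pes1 was not called in any of the 6 comparisons under the authors' scaling. It was called lower with the bacterial controls at the 1-cell stage (-1.47) and at the 2-cell stage against oocytes (-0.82), under quantile normalization it was called lower in blastocysts against the 8-cell stage (-0.52), and in a fit of only the arrays of the stages compared it was called lower at the 1-cell stage (-0.40). The Pes1 arrays spanned 218.6, 248, 232.1 and 221.7 in oocytes, 143.7, 184.1 and 192.1 at the 1-cell stage, 242.4, 247.1 and 229.9 at the 2-cell stage, 252.7, 238.3, 277.8 and 380.8 at the 8-cell stage and 163.5, 215.1 and 267.5 in blastocysts. The 1-cell arrays lay below all oocyte arrays, and the 2-cell, 8-cell and blastocyst arrays overlapped the oocyte range.

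Rrs1 and Nip7 were the 2 large subunit factors that were already higher in the 1-cell embryo. Rrs1, which brings the 5S particle to the large subunit, read 122.7, 97.7, 82.1 and 99.6 in oocytes, 215.1, 263.1 and 223 at the 1-cell stage, 454.7, 519 and 497.5 at the 2-cell stage, 555.1, 611, 505.1 and 908.4 at the 8-cell stage and 342.8, 360.4 and 401.9 in blastocysts. Each stage up to the 2-cell stage lay wholly above the one before, with rises of 1.14 ± 0.18 (adjusted p = 3.68e-05) and 1.04 ± 0.20 (adjusted p = 0.000131). Nip7 rose from 506.7, 502.6, 530.2 and 475.2 in oocytes to 946.3, 907.8 and 861.9 at the 1-cell stage (0.83 ± 0.14) and by 0.52 ± 0.15 at the 2-cell stage, the latter lost without 2-cell array 3 (0.35). With the bacterial controls the 1-cell rises came to 0.09 for Rrs1 and -0.29 for Nip7, neither called, while the 2-cell rise of Rrs1 stayed called at 1.25. Nifk, a partner of the Ki-67 protein, fell to 244 ± 62.0 at the 1-cell stage (-0.95 ± 0.22), rose to 775 ± 242 at the 2-cell stage (1.61 ± 0.23) and read 1100 ± 254 at the 8-cell stage. That last step (0.52 ± 0.22) was lost without 2-cell array 1 or 2 or 8-cell array 1, 3 or 4 (0.37 to 0.56), and its fall to the blastocyst without blastocyst array 1 (-0.60).

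Of the 4 general nucleolar proteins, only Ncl was called higher at the 2-cell stage. All 4 were called higher at the 8-cell stage, and these calls held in each of the 4 scalings. Nolc1 passed the filter through the 8-cell stage, with 3 arrays above it there and 1 at the 2-cell stage. Its rise is therefore no support for a shared course. Npm1, nucleophosmin, a chaperone for histones and ribosomal particles, read 2973, 3805.6, 3441.1 and 3654.5 in oocytes, 5838.8, 5823.9 and 4631.2 at the 1-cell stage and 4506.1, 4047.8 and 5455.5 at the 2-cell stage. It reached 13109.3, 12703.4, 12077.7 and 10603.8 at the 8-cell stage and read 5577.7, 7107.8 and 6388.5 in blastocysts. The 8-cell arrays lay above all others (1.38 ± 0.15, adjusted p = 1.18e-07), and the 1-cell arrays above all oocyte arrays (0.64 ± 0.15), a rise that turned to -0.49 with the bacterial controls and was not called under quantile normalization (0.18).

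Ncl, nucleolin, which binds the nascent ribosomal RNA, read 2675.8, 2352.5, 2846.6 and 2761.2 in oocytes, 1020, 1183.9 and 1352.7 at the 1-cell stage, 1746.6, 1737.7 and 2443.8 at the 2-cell stage, 6201, 6350.4, 7159.2 and 7330.9 at the 8-cell stage and 4598.7, 4276.8 and 4695.8 in blastocysts. It fell by 1.16 ± 0.15 at the 1-cell stage and rose by 0.72 ± 0.16 and then 1.78 ± 0.15 (adjusted p = 1.64e-09), the first of these rises not called under median centring (0.45). Ddx21, a helicase of both RNA polymerase I and II transcription, rose at a single step. Its arrays read 61.6, 59.6, 50.8 and 70 in oocytes, 39.3, 46.1 and 69.6 at the 1-cell stage and 45.8, 59.5 and 52.1 at the 2-cell stage, 3 groups that overlap, though with the bacterial controls the 1-cell change of -1.15 was called. They read 1039.1, 881.2, 1251.6 and 1016 at the 8-cell stage and 374.8, 354.5 and 353 in blastocysts, with no overlap. The rise was 4.05 ± 0.18 (16.6-fold, adjusted p = 1.13e-13), and 3.39 with the bacterial controls. Nolc1, which escorts the small nucleolar RNA particles, passed the filter on only 4 arrays, with 8-cell signals of 37.8, 61.4, 62.1 and 75.4 and means of 18.4 to 29.2 elsewhere. Its rise of 1.45 ± 0.38 rests on those dim values, and its 2-cell and 8-cell arrays overlapped.

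**Figure D4:**
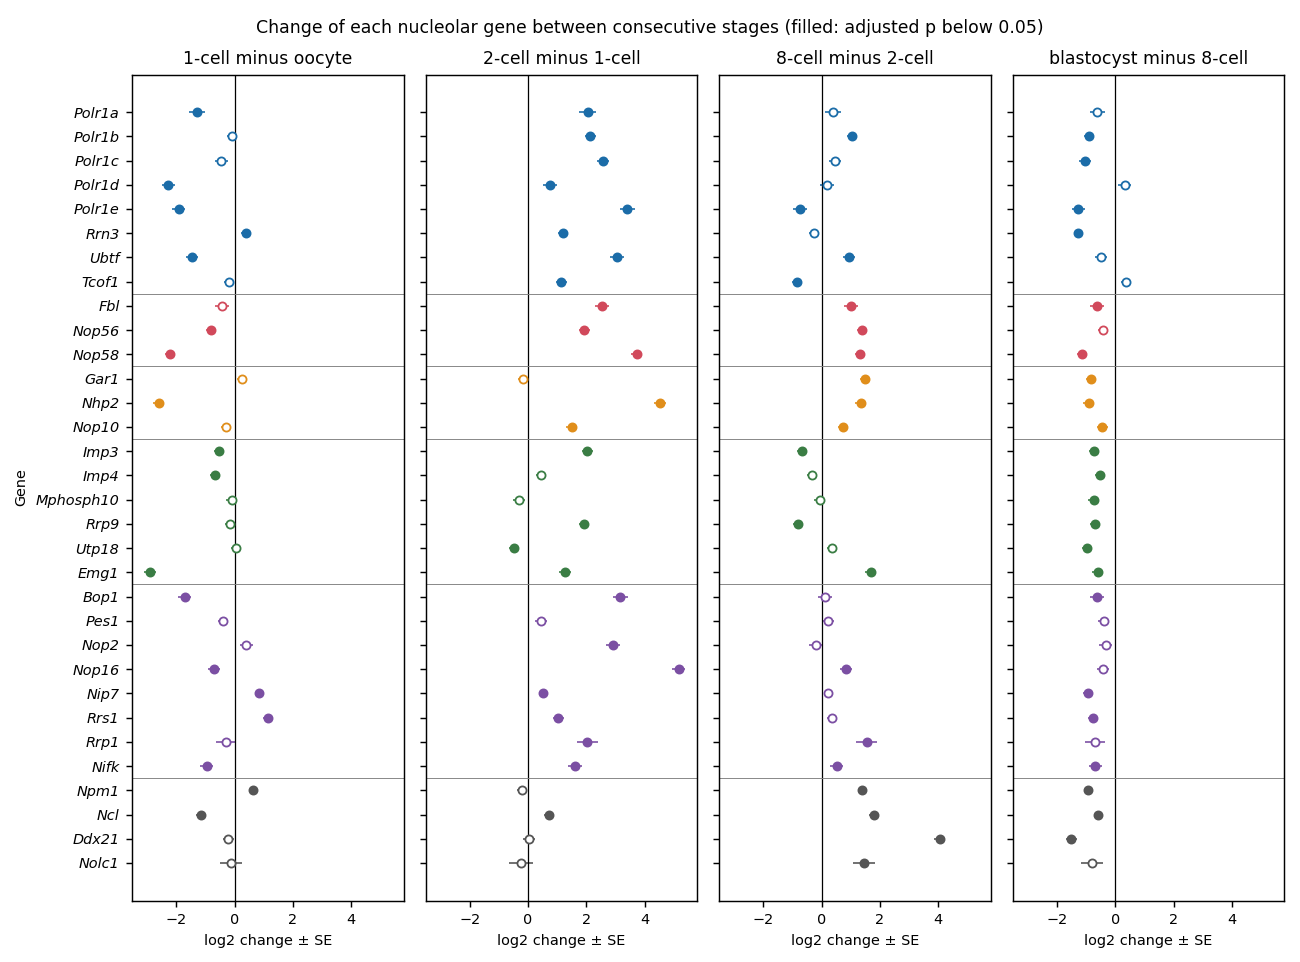
Log2 change ± SE of each of the 32 genes in the 4 consecutive comparisons, from the limma fit under the authors' scaling, with filled points for calls. The second panel has 24 filled points right of 0, led by Nop16 at 5.16 and Nhp2 at 4.53, the first panel has Emg1, Nhp2, Polr1d and Nop58 furthest left, and Ddx21 stands alone at 4.05 in the third. In the last panel 22 points are filled left of 0, and these turn to the right or lose their call when arrays are scaled on the bacterial controls.

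Against the oocyte, the 2-cell embryo had higher signals for most of the 32 genes under the authors' scaling. Called were 22 higher and 4 lower, with 6 not called, against 25.4% and 24.6% of all genes, and medians of 1.28 and 0.06. With the bacterial controls the counts were 10 and 10, while the split of all genes went from 1537 higher and 1488 lower to 554 and 2923 (1157 and 1858 under median centring). The 10 that held in all settings were Polr1b, Polr1c, Ubtf, Fbl, Nhp2, Rrp9, Nop2, Nop16, Rrs1 and Rrp1, led by Nop16 (4.46 ± 0.21), Nop2 (3.31 ± 0.23) and Rrs1 (2.18 ± 0.18). The lower genes were Polr1d (-1.53 ± 0.23), Emg1 (-1.62 ± 0.19), Utp18 and Ncl. The last 2 calls were small (-0.43 and -0.44). Utp18 lost its call without oocyte array 1 or 3 or 2-cell array 2 (-0.27 to -0.39), and Ncl without 2-cell array 1 or 2 (-0.36). Among the higher genes, Polr1a lost its call without oocyte array 1 or 2 or 2-cell array 1 or 3 (0.66 to 0.77), Npm1 without oocyte array 1 or 3 or 2-cell array 3 (0.31 to 0.42) and Nifk without 2-cell array 3 (0.43).

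In blastocysts against oocytes 19 genes were higher and 5 lower, with 8 not called. Of all genes 32.3% were called higher and 33.8% lower in this comparison, and the medians were 0.75 for the 32 genes and -0.09 for all genes. The 2 comparisons with the oocyte share its arrays. All 6 genes of the small nucleolar RNA particles were higher (all but Gar1 also with the bacterial controls), with Fbl at 2.50 ± 0.24 and Nhp2 at 2.36 ± 0.19, and 6 of 8 large subunit factors were higher, with Nop16 at 4.88 ± 0.21. None of the 6 small subunit factors was called higher by limma, and 4 were called lower. Those 4 were Imp4, Mphosph10, Utp18 (0.18 with its second probe set) and Emg1. The call of Emg1 (-0.55 ± 0.19) was lost without oocyte array 2 or blastocyst array 2, at -0.44 and -0.50. With the bacterial controls 13 genes were higher and the same 4 small subunit factors were lower, and the split of all genes went from 1950 higher and 2045 lower to 1382 and 2330. Tcof1 (0.47 ± 0.17) lost its call without oocyte array 1 or 2 or blastocyst array 1 or 2 (0.39 to 0.47).

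In the step from the 8-cell stage to the blastocyst, all 6 small subunit factors, all 3 box H/ACA genes and 3 of 4 general nucleolar genes were called lower under the authors' scaling. None of them was called lower with the bacterial controls, under which 137 of all 6044 tested genes were called lower and 3591 higher. The largest were Ddx21 (-1.50 ± 0.18), Rrn3 (-1.27 ± 0.15), Polr1e (-1.26 ± 0.23) and Nop58 (-1.15 ± 0.17). These 4 came to -0.33, -0.11, -0.19 and 0.03 with the bacterial controls. Of the 22 calls, 15 held under both quantile normalization and median centring. Bop1 (-0.62 ± 0.23) lost its call without 8-cell array 3 or 4 or blastocyst array 2 or 3 (-0.46 to -0.69).

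Of the 32 genes, 10 had more than 1 probe set, and for 6 of them several were tested. The probe set with the highest mean stood for its gene. Others gave the same direction at the 2-cell stage for Nop56 (1.58) and Polr1c (1.06). A dim second probe set of Polr1a, with stage means of 20.8 to 45.4, gave 0.08. For Bop1 the other probe set gave 0.59 at the 1-cell stage where the one used gave -1.71, so that its course after fertilisation has no settled direction. For Utp18 it gave 0.18 in blastocysts against oocytes where the one used gave -1.06, and 1.09 at the 8-cell stage.

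The pathway around these genes was read from a further list of 154 genes for RNA polymerase I, small nucleolar RNA particles, subunit assembly, the RNA exosome and other nucleolar proteins, of which 88 were tested. They took a like course. At the 1-cell stage 41 fell and 6 rose, at the 2-cell stage 58 rose and 12 fell, at the 8-cell stage 37 rose and 8 fell, and in the blastocyst 53 fell and 3 rose. The background shares under the authors' scaling are those given for the same comparisons. With the bacterial controls the 2-cell stage kept 55 higher and 4 lower, while the 1-cell stage had 0 higher and 74 lower, the 8-cell stage turned to 9 higher and 20 lower and the last step to 24 higher and 1 lower. Of all 6044 tested genes, 1407 were then higher and 714 lower at the 2-cell stage, and 19 and 3573 at the 1-cell stage. The 8-cell stage had 612 and 2509 of them, and the last step 3591 and 137.

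Coil, the protein of Cajal bodies where small nucleolar RNA particles mature, rose from 5.0 ± 1.04 at the 1-cell stage (SD, n = 3) to 304 ± 41.5 at the 2-cell stage (n = 3), a change of 4.29 ± 0.24. Wdr74, a large subunit factor, went from 5.67 ± 0.473 to 349 ± 191 (4.28 ± 0.28), and the exosome cofactor C1d rose by 4.28 ± 0.33. The largest falls at that stage were those of the kinase Riok1 (-1.78 ± 0.27), of Sbds, which readies the large subunit for use (-1.75 ± 0.17), and of Bms1 (-1.40 ± 0.21). At the 1-cell stage Fcf1, a nuclease-like factor of the small subunit, fell from 2210 ± 273 (n = 4) to 187 ± 38.4 (n = 3), a change of -3.49 ± 0.18, and Polr2l, a small subunit common to the 3 RNA polymerases, changed by -2.70 ± 0.16. At the 8-cell stage the histone chaperone Nap1l1 rose by 2.63 ± 0.16 and Ftsj3, a large subunit methyltransferase, by 2.24 ± 0.23.

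Taf1a, a subunit of the selectivity factor that places RNA polymerase I on its promoter, took a course unlike that of Ubtf. Its mean signals were 1750 ± 168 in oocytes (n = 4), 874 ± 106 at the 1-cell stage (n = 3), 564 ± 107 at the 2-cell stage (n = 3), 426 ± 118 at the 8-cell stage (n = 4) and 73.5 ± 2.18 in blastocysts (n = 3). Blastocysts against oocytes changed by -4.38 ± 0.18, and by -4.79 with the bacterial controls. Gnl3, nucleostemin, a GTPase that shuttles from the nucleolus, changed by -1.49 ± 0.25, 1.96 ± 0.26, 1.23 ± 0.25 and -1.01 ± 0.25 over the 4 steps, all called under the authors' scaling, and by 0.16 in the last step with the bacterial controls.

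The array also carries control probe sets for the 18S ribosomal RNA, the small subunit's own RNA. Their mean changed by 4.89 on the log2 scale from oocyte to 1-cell embryo, by -3.22 to the 2-cell stage, by 0.08 to the 8-cell stage and by -0.34 to the blastocyst. How far these signals follow the amount of ribosomal RNA in amplified samples was not tested.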

How the data were processed

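The authors deposited 1 scaled signal intensity per probe set and array (12488 probe sets, 17 arrays) on a linear scale. The sources used here do not name the scaling software, its version or its target. Per the labels, total RNA was amplified in 2 rounds. No column was left unused, and with 3 or 4 arrays a stage their number limits precision.

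An offset of 11 (the rounded 25th percentile) was added before log2. The test covered 8067 probe sets with a signal over the overall median of 41.1 on 3 or more arrays, leaving out 66 controls. Names came from the platform annotation (10833 probe sets with 1 symbol, 396 with several, 1193 with none). Each of 6044 genes was represented by its brightest tested probe set with 1 symbol (highest mean log2). A mean per stage was fitted in R 4.3.3 with limma 3.58.1 (lmFit, eBayes with trend, 12 residual degrees of freedom), with Benjamini-Hochberg adjustment within each comparison and two-sided tests, and was tested on simulated data. All 32 members were named. Other pathway genes were named from the 3 largest called rises and the 3 largest called falls without overlap in each comparison, plus Gnl3, Myc, Mycn and Mycl. The members and lists were chosen with earlier results of these data known. Promoters came from RefSeq (GRCm38.p6), and no protein sequences were used. Alternatives were other scalings, offsets, filters, probe set rules, a replicate block, only the stages compared and each array left out.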

Additional observations from a re-analysis of the deposited data

Results flagged for a closer look

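Among the 64 groups of 4 arrays, 2 had 1 array far from the other 3, as chance gives in about 1 group in 20. Both times it was 8-cell array 4. Polr1a, the largest RNA polymerase I subunit, read 256.1 there and 130.3, 130.8 and 138.5 on the other 8-cell arrays. Polr1b, the second largest subunit, read 736.7 there and 1039.5, 1049.8 and 1114.9 on the others.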

How the results depend on the processing

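Scaling on the bacterial controls had the largest effect. It gave 0 higher and 27 lower of the 32 genes at the 1-cell stage, 8 higher and 7 lower at the 8-cell stage, 6 higher and 0 lower in blastocysts against the 8-cell stage, and 10 higher and 10 lower at the 2-cell stage against oocytes. All 6044 tested genes gave 19 higher and 3573 lower, 612 and 2509, 3591 and 137, and 554 and 2923 in these comparisons. The 1 gene called lower at the 2-cell stage against the 1-cell stage became 0 under that scaling, quantile normalization and a fit of only the arrays of the stages compared, and 3 under median centring, which also gave 1 higher gene in blastocysts against the 8-cell stage. The causes were not tested.

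Of the changes called under the authors' scaling or under the bacterial controls, these turned in sign between them, with the value under the bacterial controls given. Changes called under neither are not listed. In blastocysts against the 8-cell stage they were Bop1 0.45, Emg1 0.58, Fbl 0.57, Gar1 0.35, Imp3 0.43, Imp4 0.63, Mphosph10 0.39, Ncl 0.61, Nhp2 0.28, Nifk 0.48, Nip7 0.23, Nop10 0.74, Nop16 0.76, Nop2 0.81, Nop56 0.76, Nop58 0.03, Npm1 0.26, Polr1b 0.26, Polr1c 0.13, Rrp9 0.46, Rrs1 0.41 and Utp18 0.20. At the 1-cell stage they were Gar1 -0.87, Nip7 -0.29, Npm1 -0.49, Rrn3 -0.71 and Utp18 -1.07. At the 2-cell stage against oocytes they were Gar1 -0.83, Nifk -0.23, Npm1 -0.48, Pes1 -0.82 and Polr1a -0.04, and at the 8-cell stage Nifk -0.12. The stricter filter replaced the probe set of Bop1 and turned its 1-cell change to 0.59.

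With each array left out, counts of higher and lower genes ranged over 3 to 4 and 12 to 14 at the 1-cell stage, 23 to 25 and 0 to 1 at the 2-cell stage, 15 to 18 and 3 to 5 at the 8-cell stage, 0 to 1 and 18 to 21 in blastocysts, 19 to 22 and 3 to 4 at the 2-cell stage against oocytes, and 18 to 19 and 4 to 5 in blastocysts against oocytes. The arrays' replicate numbers did not pair them (correlations of deviations -0.05 to 0.13). The fit with the replicate block gave 24 higher at the 2-cell stage, 15 higher at the 8-cell stage and 20 lower in blastocysts, and changed 9 of 192 single calls. Nolc1, Rrp1, Nop2, Bop1 and Polr1a lie near the background on several arrays, which limits their fold changes.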

Other observations

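Myc and its relatives, transcription factors that bind CACGTG and are known to drive ribosome assembly genes in other cells, were measured on the same arrays, with 10 genes of the family and its partners tested. Of the 10, 2 were called higher by limma at the 1-cell stage, 2 higher and 2 lower at the 2-cell stage, 4 and 4 at the 8-cell stage, and 2 and 1 in blastocysts. Of all tested genes 18.0% were called higher and 20.8% lower at the 1-cell stage, and 25.8% and 22.8% at the 2-cell stage. The shares were 26.1% and 29.6% at the 8-cell stage, and 23.0% and 20.7% in blastocysts. With 10 genes, the counts say little about the family beside those shares. Myc was dim, with mean signals of 4.18 ± 2.52 in oocytes (n = 4), 1.70 ± 0.819 at the 1-cell stage (n = 3), 35.2 ± 8.20 at the 2-cell stage (n = 3), 34.4 ± 13.0 at the 8-cell stage (n = 4) and 42.6 ± 0.643 in blastocysts (n = 3). Its rise at the 2-cell stage was 1.85 ± 0.28 (1.57 to 1.80 in the other scalings), between signals below the filter. Mycn came later. It read 16.8 ± 4.03 at the 2-cell stage, 42.5 ± 13.4 at the 8-cell stage and 164 ± 28.0 in blastocysts, a last step of 1.73 ± 0.31 (1.67 to 2.69 in the other scalings).

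Mxd4, which competes with Myc for the shared partner Max, was higher at the 1-cell stage at 1020 ± 161 than in oocytes at 285 ± 25.8, a change of 1.80 ± 0.16 (0.69 to 1.85 in the other scalings), and fell by 1.90 ± 0.16 from the 2-cell to the 8-cell stage. Mxd1, of the same kind, was dim and changed by 1.55 ± 0.28 at the 1-cell stage and by -1.74 ± 0.28 at the 8-cell stage. Mycl was at or near the filter, with changes of 0.25 ± 0.44, -0.99 ± 0.47, 1.14 ± 0.44 and -0.05 ± 0.44 over the 4 steps, of which the third was called (limma, adjusted p = 0.0346) and came to 0.65 with the bacterial controls.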
